A study of Mus musculus with 3 samples.

Results

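The antioxidant and glutathione enzymes described here are 56 of the 30854 gene symbols measured in the early mouse embryo. The rule that picks them reads the symbol and no measured value, although the set was proposed with earlier results of these data known. It takes superoxide dismutases (Sod) and catalase (Cat), glutathione peroxidases (Gpx), peroxiredoxins (Prdx), thioredoxins and their reductases (Txn, Txnrd), glutaredoxins (Glrx), the enzymes that make glutathione (Gclc, Gclm, Gss), glutathione S-transferases (Gst), haem oxygenase (Hmox1), and a quinone reductase (Nqo1). The rule also asked for Gsr, glutathione reductase, but the table has no row with that symbol. The RNA came from wild-type embryos at the early headfold (EHF) stage, of the strain given as Cd-1 in the labels and as ICR in the methods. Each embryo was cut at the boundary between its embryonic and extraembryonic parts, and the embryonic part was kept. There was no treatment and no second genotype, and the 3 arrays, replicates 1, 2, and 3, form a single group. The design text speaks of several samples in a well, and neither it nor the methods say if embryos were hybridized singly or pooled. The spread between arrays may therefore be technical in part, and p-values measure only that spread.

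Cells that respire make superoxide, which superoxide dismutases turn into hydrogen peroxide. Catalase, glutathione peroxidases, and peroxiredoxins break the peroxide down, the peroxidases at the expense of glutathione and most peroxiredoxins at the expense of thioredoxin. Glutathione and thioredoxin are reduced again with NADPH, glutaredoxins use glutathione to reduce protein disulfides, and glutathione S-transferases attach glutathione to reactive compounds. The transcription factor NRF2 (Nfe2l2), which KEAP1 sends for degradation, binds antioxidant response elements and activates many of these genes. The visceral endoderm, an absorptive epithelium, surrounds the early embryo. Over the embryonic region its cells come to be mixed with definitive endoderm during gastrulation. The paper reports that these mixed cells lower their visceral endoderm markers. By in situ hybridization at headfold stages, it found the marker Apoc2 over the extraembryonic part only.

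The authors deposited a log2 signal per symbol, not normalized between arrays, and a detection p-value. For a symbol with 1 probe, that p-value gives how large a fraction of the array's negative controls reach its signal. For a symbol with several probes it was inferred, as described below, to be combined over the probes, so a bright symbol can have a large value. A gene was called above background where the detection p was under 0.01 on all 3 arrays. Over all symbols the arrays had median log2 signals of 6.57, 6.51, and 6.42, in the order of the replicates, and 9015, 8220, and 7191 symbols passed on them. The signal at which a symbol with 1 probe just passed, taken as the background level, was 6.69, 6.66, and 6.58. Levels above background were computed after background correction and quantile normalization, as the log2 difference from the background level of the same array. On that scale the background level was 4.69, 4.81, and 5.06, in the order of the replicates. The SD of a level above background therefore includes this difference between arrays. Levels above background were tested one-sided in limma. The standard error was the same for all genes in that fit, 0.15. Its adjusted p-values treat this spread as known. Where a limma p is given for a gene, it is therefore the largest value over the alternative settings. For Cat and Txn1 the value of the main fit stands beside it. The size of a level depends on the scaling. With quantile normalization and no background correction, the level of Gpx1 was 5.71 in place of 7.49, that of Gclm 0.91 in place of 2.00, and that of Gstm1 0.26 in place of 0.74, so the levels given below are sizes on 1 scale. The number of arrays limits the precision of all levels.

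Of 14 markers of the embryonic region 12 were called, among them T, Otx2, and Pou5f1. Of 14 markers of the visceral endoderm 13 were called, Afp being the exception. Apoc2, which the paper did not detect in the gut endoderm, was among them at 0.63 above background. From which cells the RNA of these markers came was not tested. Of 15 genes listed as markers of extraembryonic ectoderm 6 were called, Bmp4, Cdx2, Ets2, Plac1, Rhox5, and Tfap2c. Of that list Cdx2 and Rhox5 lay 4.53 and 4.35 above background on the log2 scale, whereas 7 genes, Elf5, Eomes, and Ascl2 among them, passed on no array. None of 7 markers of primitive red cells, embryonic globins included, and none of 6 markers of decidua was called. Each of the embryonic region, visceral endoderm, and extraembryonic ectoderm lists thus had some genes above background in these pieces, where 20.6% of all symbols were called. A listed gene can be expressed in other tissues too, so the calls do not show that extraembryonic ectoderm was present. In such tissue fewer cells of a type and less RNA per cell cannot be told apart.

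Of the 56 antioxidant and glutathione genes, 24 (42.9%) were called above background, beside 20.6% of all 30854 symbols. The detection p passed on 1 or 2 arrays for 8 more and on no array for 24. By limma, 31 of the 56 (55.4%) had a level above background at an adjusted p under 0.05, beside 25.7% of all symbols. These 31 include all 24 called genes and 7 others, Sod1, Gpx4, Prdx1, Prdx4, Gstp1, Glrx3, and Txn1. The median level above background was 0.66 over the 56 genes and -0.46 over all symbols on the log2 scale, where a negative value lies below background. By role, the called genes were 5 of 8 glutathione peroxidases, 3 of 8 peroxiredoxins, 3 of 5 thioredoxins and thioredoxin reductases, 2 of 5 glutaredoxins, 9 of 21 glutathione S-transferases, 1 of 3 glutathione synthesis genes, 1 of 4 in the set of superoxide dismutases and catalase, and neither Hmox1 nor Nqo1. No test compares these shares, since the genes are not replicates of each other.

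**Figure D1:**
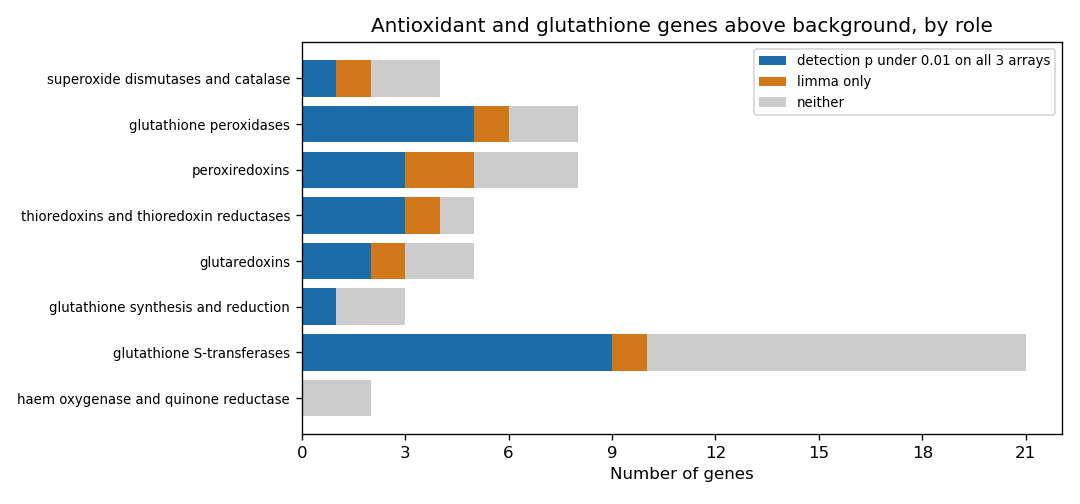
Number of genes above background in each role, for the 56 antioxidant and glutathione genes. Blue is a detection p under 0.01 on all 3 arrays (24 genes), orange an adjusted limma p under 0.05 without that call (7 genes), and grey neither (25 genes); peroxiredoxins hold 2 of the orange genes.

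The number of probes behind a symbol bears on these calls, and it was inferred from the bead numbers and the detection p. Of the 30 genes with 1 probe 18 (60%) were called, whereas 20.8% of all 22003 symbols with 1 probe were. Of the 26 genes with several probes 6 (23.1%) were called, beside 20.1% of all 8849 such symbols. For the genes with several probes, 63 of 69 detection p-values that could be checked corresponded to a sum of p-values over the probes that was a whole number of steps of 1 in 936, within 0.02 of a step's width. That share is in part built in, since some probe numbers were set from the same p-values. In such a sum a single dim probe raises the value. Among the genes with several probes, 15 had a signal above the background level on all 3 arrays, and 9 of those (60%) were not called. Over all symbols this was so for 1837 of 3524 (52.1%). With 1 probe it happened for none of 18 genes, and over all symbols with 1 probe for 7 of 4587. That result is largely built in, since the background level was set by the dimmest passing symbol with 1 probe.

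**Figure D2:**
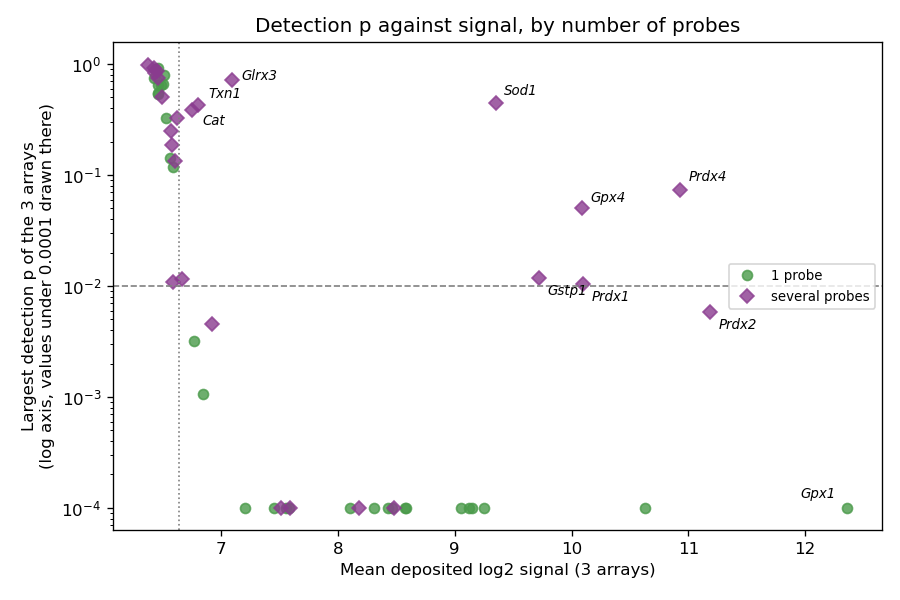
Mean deposited log2 signal over the 3 arrays (x axis) against the largest detection p of the 3 arrays (y axis, log scale), for the 56 genes, with circles for 1 probe and diamonds for several. The dashed line is the threshold of 0.01 and the dotted line the mean background level; Sod1, Gpx4, Prdx4, Gstp1, and Prdx1 lie far to the right of the dotted line and above the dashed line.

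Sod1, the cytosolic copper-zinc superoxide dismutase, had log2 signals of 9.82 on replicate 1, 9.66 on replicate 2, and 8.58 on replicate 3. All 3 lay well above the background level, with replicate 3 the lowest, yet Sod1 had no call, at a detection p of 0.445, 0.178, and 0.104. With 2 inferred probes these values stand for sums of the probes' p-values of 0.943, 0.597, and 0.456, so on each array at least 1 of the 2 probes did not itself pass. Its level above background was 4.32 ± 0.60 (SD, n = 3), and limma's largest adjusted p over the alternatives in which it was tested was 0.00117. Sod2, the manganese enzyme of mitochondria, had signals of 9.65, 9.08, and 8.73 and was called. Its level was 4.10 ± 0.37 above background (SD, n = 3), and replicate 1 stood apart from the others. Sod3, the secreted form, was at background on every array with signals of 6.50, 6.45, and 6.42. Catalase, the peroxisomal enzyme that splits hydrogen peroxide, had signals of 6.79, 6.78, and 6.68, just above the background level of each array. Its level of 0.33 ± 0.06 (SD, n = 3) had an adjusted limma p of 0.0523, which rose as high as 0.329 under the alternatives and fell below the threshold under 4 of them. The detection p passed on no array. Cat is also an older symbol of Mip, so the name of that row is not certain.

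Gpx1, the main cytosolic glutathione peroxidase and a selenoprotein, had signals of 12.61, 12.29, and 12.18 and a level of 7.49 ± 0.11 above background (SD, n = 3). The 3 arrays lay close together beside a distance of that size. Gpx3, the secreted glutathione peroxidase of plasma and also a selenoprotein, had signals of 9.18, 9.30, and 8.66, at 3.98 ± 0.26 above background (SD, n = 3). It was called on all arrays, with replicate 3 the lowest on the deposited signals and replicate 1 the lowest after quantile normalization. Gpx4, which reduces lipid peroxides in membranes and is required for the embryo to develop through gastrulation, had signals of 10.41, 10.24, and 9.63. It passed on replicates 1 and 2 and missed on replicate 3 at a detection p of 0.0501, although its level was 5.14 ± 0.27 above background (SD, n = 3). It has 3 inferred probes, and its symbol is also listed for the pseudogene Gpx4-ps2, so related copies may share its signal. Gpx2, a form best known from the gut epithelium, was called with signals of 8.43, 8.76, and 8.10, the highest on replicate 2. Gpx7 (8.58, 8.37, and 7.97) and Gpx8 (8.80, 8.53, and 8.10), both enzymes of the endoplasmic reticulum, were called as well. A further row under an older symbol of Gpx8, 2310016C16Rik, had 8.94, 8.64, and 8.41 and was called too, so 2 rows named for Gpx8 gave the same answer. Gpx5 and Gpx6, known from epididymis and olfactory epithelium, passed on no array, and neither did the row under an older symbol of Gpx6.

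Prdx2, a cytosolic peroxiredoxin, had signals of 11.55, 11.21, and 10.81 and was called, at 6.29 ± 0.26 above background (SD, n = 3). Prdx1, another cytosolic form, had 10.59, 10.44, and 9.28, at 5.15 ± 0.62 above background (SD, n = 3). Replicate 3 lay more than 1 log2 unit below the others and just missed the threshold at a detection p of 0.0104. Prdx4, the form of the endoplasmic reticulum, had 11.14, 10.95, and 10.69, at 6.02 ± 0.09 above background (SD, n = 3), and passed on no array. Its detection p was 0.0351, 0.0266, and 0.0736 over 2 inferred probes, while the signal sat far from background on every array. Prdx3, the mitochondrial form, was called with 8.65, 8.67, and 8.06. Prdx5, found in several compartments, was called with 7.60, 7.59, and 7.33, at 1.93 ± 0.09 above background (SD, n = 3). Prdx6, which uses glutathione in place of thioredoxin, had 6.64, 6.54, and 6.63, with a level of -0.09 ± 0.27 (SD, n = 3) that did not pass in limma. Each of the symbols Prdx5 and Prdx6 is listed as an older name of the other gene, so which of these 2 rows holds which gene is not certain. Prdx6-rs2 passed on no array.

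**Figure D3:**
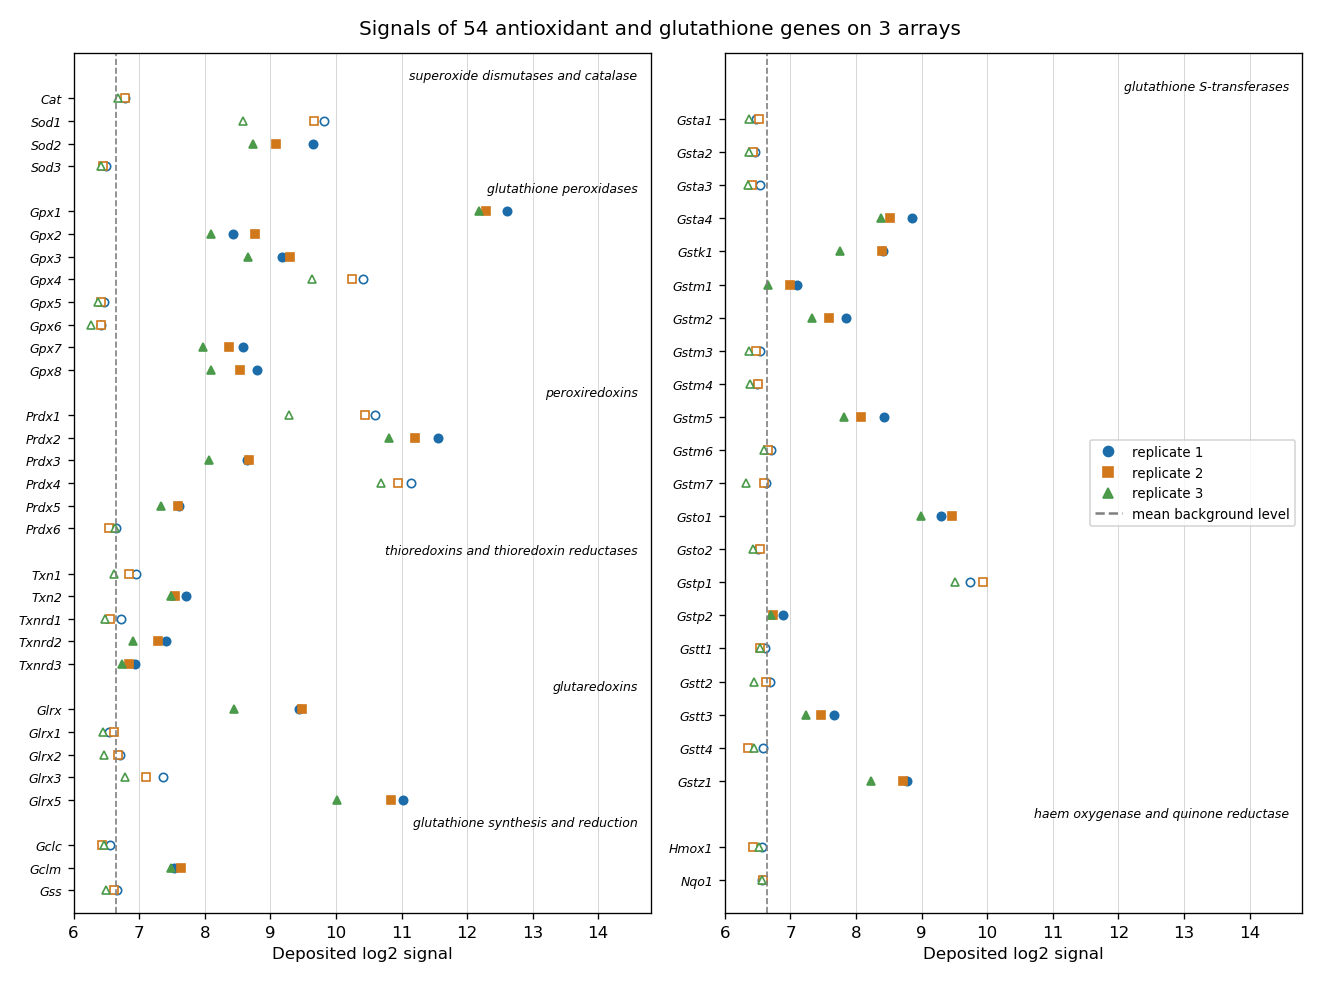
Deposited log2 signal (x axis) of 54 of the 56 genes on the 3 arrays, grouped by role, with blue circles for replicate 1, orange squares for replicate 2, and green triangles for replicate 3. Filled symbols mark the 24 called genes, and the dashed line is the mean background level of the arrays; Gpx1 lies at 12.18 to 12.61, and Gclc, Hmox1, and Nqo1 lie at the line or to its left.

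Thioredoxin was called for its mitochondrial form only. Txn2 had signals of 7.71, 7.55, and 7.48, at 2.05 ± 0.08 above background (SD, n = 3). Txn1, the cytosolic form, had 6.95, 6.84, and 6.62, with detection p-values of 0.431, 0.254, and 0.318 over 3 inferred probes. Its level of 0.44 ± 0.26 (SD, n = 3) had an adjusted limma p of 0.00678, which rose as high as 0.177 under the alternatives, and the call was lost under 4 of them. Under a further alternative, the filter on dim symbols, it did not enter the fit. The row Txn2-pending was at background. Among the reductases, Txnrd2, the mitochondrial enzyme, was called with 7.41, 7.29, and 6.90, at 1.36 ± 0.32 above background (SD, n = 3). Txnrd3, the form best known from testis, was called with 6.93, 6.85, and 6.74. Txnrd1, the cytosolic reductase, had 6.73, 6.55, and 6.48 and passed on replicate 1 only. The mitochondrial thioredoxin and its reductase were thus called, and the cytosolic pair Txn1 and Txnrd1 was not, a contrast that no test compares. Txn2, Txnrd2, and Txnrd1 have 1 inferred probe each and Txn1 has 3, so the call of Txn1 is not of the same kind. The signal of Txn1 lay above the background level on all 3 arrays.

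Glrx5, a mitochondrial glutaredoxin needed to make iron-sulfur clusters, had signals of 11.02, 10.84, and 10.01 and a level of 5.70 ± 0.42 above background (SD, n = 3). Glrx, the cytosolic enzyme, was called with 9.43, 9.49, and 8.45, at 4.07 ± 0.52 (SD, n = 3). For both, replicate 3 was the lowest array by a distance larger than that between the other arrays. Glrx3, a cytosolic glutaredoxin of the iron-sulfur pathway, had 7.36, 7.11, and 6.79, and passed on no array over 3 inferred probes. Its level was 1.12 ± 0.39 above background (SD, n = 3), with a largest adjusted limma p of 0.0219. A row under its older symbol Txnl2 had 6.96, 6.90, and 6.66 and passed on 1 array. Glrx2 passed on no array, nor did a row named Glrx1, an older symbol of Glrx, so the rows naming Glrx differ in their call.

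Gclm, the regulatory subunit of the enzyme that sets the rate of glutathione synthesis, was called with signals of 7.53, 7.64, and 7.48, at 2.00 ± 0.19 above background (SD, n = 3). Gclc, its catalytic subunit, had 6.56, 6.43, and 6.46, below the background level on every array, and passed on none. Gss, which completes glutathione, had 6.66, 6.62, and 6.49 and passed on replicates 1 and 3 by its combined detection p over 4 inferred probes, with a mean level of -0.20 ± 0.19 (SD, n = 3). Of the subunits of 1 enzyme, then, the regulatory one was called and the catalytic one was not.

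Among glutathione S-transferases, Gstp1, of the pi class, had signals of 9.73, 9.93, and 9.51 and a level of 4.74 ± 0.16 above background (SD, n = 3), although a detection p of 0.0117 on replicate 2 kept it from a call. Gstp2, a near-identical neighbour, was called with 6.88, 6.73, and 6.71. It passed in limma but missed the threshold under 3 of the alternatives. Probes of such close copies can bind each other's RNA, so the 2 signals are uncertain as measures of each gene. Gsto1, of the omega class, was called with 9.30, 9.47, and 8.99, and Gstz1, an enzyme of tyrosine breakdown, with 8.78, 8.71, and 8.23. Gsta4, which conjugates the lipid peroxidation product 4-hydroxynonenal, was called with 8.86, 8.51, and 8.38, whereas its class mates Gsta1, Gsta2, and Gsta3 passed on no array. In the mu class, Gstm5 was called with 8.42, 8.07, and 7.82 and Gstm1 with 7.10, 7.00, and 6.66. For Gstm1 the largest adjusted limma p over the alternatives was 0.0471, close to the threshold. Gstm2 was also called, Gstm6 passed on 2 arrays, and Gstm3, Gstm4, and Gstm7 on none. In the theta class, Gstt3 was called, Gstt2 passed on 1 array, and Gstt1 (6.61, 6.54, and 6.53) and Gstt4 passed on none. Gstk1, of mitochondria and peroxisomes, was called, and Gsto2 was not. Members of the alpha, mu, and theta classes share sequence, so their rows may share signal.

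Hmox1, the inducible enzyme of haem breakdown, had signals of 6.56, 6.43, and 6.52 and passed on no array. Nqo1, a quinone reductase and a textbook target of NRF2, had 6.56, 6.58, and 6.57 and passed on replicate 3 only, at a detection p of 0.00808. Both signals lay below the background level of each array, and the levels were -0.38 ± 0.15 for Hmox1 and -0.19 ± 0.13 for Nqo1 (SD, n = 3).

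The short form of the antioxidant response element, TGACNNNGC, was searched on both strands in RefSeq promoter sequence of GRCm38.p6, from 250 bases before to 50 bases after each start. Promoters were matched for 47 of the 56 genes, and 7 (14.9%) held the letters, beside 14% of 27025 genes with a promoter. Among the genes called above background 2 of 23 held it and among the others 5 of 24, where 16.4% and 14.9% of called and uncalled genes on the array did. The windows are shown because Gclm, Prdx1, and Txnrd1 are textbook targets of NRF2 and because the genes that share the letters differ in their calls. Nqo1, also a textbook target, had a matched promoter without the letters, and no promoter was matched for Hmox1 or Gclc. Capitals mark the match, which reads GCNNNGTCA where it lies on the opposite strand.
Gclm (chr3:122245407-122245447, plus strand): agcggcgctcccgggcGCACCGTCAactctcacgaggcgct
Prdx1 (chr4:116685450-116685490, plus strand): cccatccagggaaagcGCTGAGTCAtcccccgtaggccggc
Txnrd1 (chr10:82859098-82859138, plus strand): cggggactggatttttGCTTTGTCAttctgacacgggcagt
Sod1 (chr16:90220690-90220730, plus strand): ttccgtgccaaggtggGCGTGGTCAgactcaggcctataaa
Gstm5 (chr3:107895796-107895836, plus strand): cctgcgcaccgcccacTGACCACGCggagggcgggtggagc
In Gclm, Prdx1, Txnrd1, and Sod1 the match lies on the opposite strand and begins 134, 133, 92, and 56 bases before the start, and in Gstm5 on the same strand 42 bases before. Gsta3 and Gstm7, at background on all arrays, held it on the same strand at 121 and 129 bases. Of the 5 genes printed, Gclm and Gstm5 were called, Prdx1 passed on 2 arrays, Txnrd1 on 1, and Sod1 on none. A match is a description of the letters, not a binding site.

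The genes around these enzymes were counted in 6 lists, 77 genes in all, of which 31 were called, beside 20.6% of all symbols. Of 12 regulators of the NRF2 pathway, 7 (58.3%) were called, Nfe2l1, Keap1, Cul3, Rbx1, Bach2, Mafg, and Sqstm1. Nfe2l2 itself had signals of 6.66, 6.80, and 6.57, close to the background level, and passed on 1 array. Keap1, its inhibitor, had 7.20, 7.05, and 6.88, and the ligase subunits Cul3 (10.46, 10.19, and 10.00) and Rbx1 (11.14, 11.13, and 10.31) were called on every array. Of 9 genes listed for NADPH supply, 6 (66.7%) were called, G6pdx, Pgd, and Taldo1 of the pentose phosphate route with H6pd, Idh1, and Idh2. Taldo1 belongs to that route but does not itself make NADPH. Of 5 genes of haem breakdown and iron storage, 4 (80%) were called, Hmox2, Blvra, Blvrb, and Fth1, and Ftl1 had a level above background in limma without a call. Hmox2, the constitutive haem oxygenase, had 7.90, 8.15, and 7.42, whereas Hmox1 stayed at background.

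Of 28 further glutathione and thioredoxin genes, 11 (39.3%) were called: Mgst3, Ggct (under A030007L17Rik), Chac1, Txnip, Nxn, Msrb1 (under Sepx1), Msrb2, Glo1, Hagh, Park7, and Ccs. Ccs, the chaperone that loads copper into SOD1, had signals of 9.41, 9.37, and 9.08. Slc7a11, the cystine carrier that feeds glutathione synthesis, and Srxn1, which repairs oxidized peroxiredoxins, passed on no array. Of 7 genes of selenoprotein synthesis only Sephs2 (14.3%, below the share of all symbols) was called, with 7.59, 7.13, and 6.98. Of 16 oxidant-producing enzymes, Nox4 and its partner Cyba (12.5%, also below that share) were called, and the other 14 passed on no array. Nox4 lay at 6.74, 6.74, and 6.60, within 0.1 of the background level, and did not pass in limma.

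On the deposited signals, replicate 3 was the lowest array for all 24 called genes, and it was so for 93.4% of all 6357 called symbols. The median of level minus the mean of the other 2 arrays was -0.02, 0.05, and -0.01 for replicates 1, 2, and 3 over the 24 genes after quantile normalization, and -0.01, -0.01, and 0.03 over all called symbols. Replicate 2 was the highest array for 11 of the 24 (45.8%), beside 29.4% of called symbols, and on the deposited signals for 6 of the 24 (25%), beside 14.5%. The same difference over 13 called visceral endoderm markers was -0.11, 0.55, and -0.24. Over 12 called markers of the embryonic region it was 0.15, -0.19, and 0.03, and over 6 of extraembryonic ectoderm it was 0.06, 0.14, and -0.10. Summed over all 14 visceral endoderm markers on the linear scale, the normalized level was 11719, 14349, and 8972. Spink3 and Apoa1 had similar mean levels above background, 6.56 and 6.53, and Apoa1 had the higher deposited signal on replicate 3 (10.98 against 10.33). Different probes give no firm order between them. Afp passed on replicates 1 and 2 only. The part of these tissues in the values of the antioxidant genes was not tested. Slide and scan date are not given in the sources used here.

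**Figure D4:**
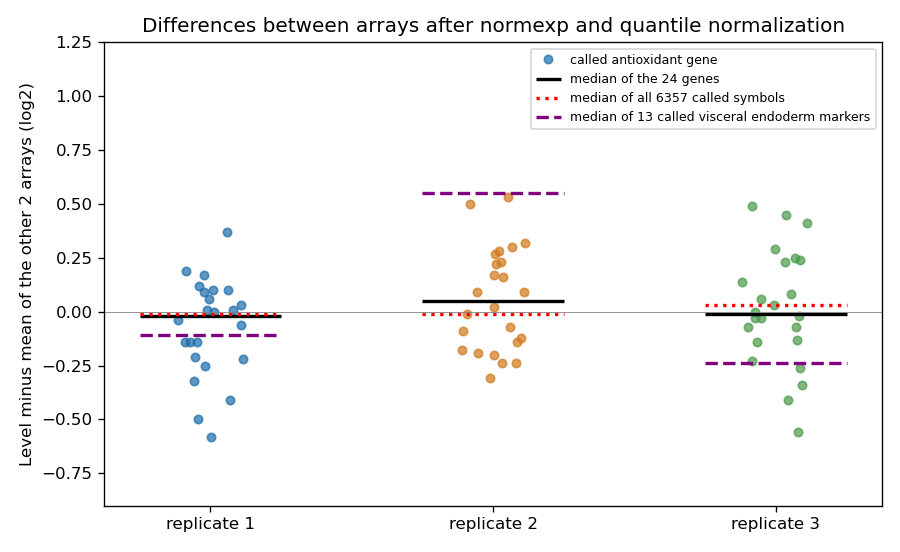
Normalized level of each of the 24 called genes on an array minus the mean of the other 2 arrays (y axis, log2), for replicates 1, 2, and 3; positions within a column are spread for sight only. Black lines are medians of the 24 genes (-0.02, 0.05, and -0.01), red dotted lines medians of all 6357 called symbols, and purple dashed lines medians of the 13 called visceral endoderm markers (-0.11, 0.55, and -0.24).

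The 24 genes varied between arrays about as much as other called symbols, with a median SD of the normalized level of 0.18 beside 0.17. On that scale Gpx7 (0.02) and Gpx8 (0.05) had the smallest SDs, and Glrx and Gclm, both at 0.36, the largest. The order depends on the scale. On the deposited signals the SD of Gclm was 0.08, the smallest of the 24, and those of Gpx7, Gpx8, and Glrx were 0.31, 0.35, and 0.58. After quantile normalization Glrx was 0.53 higher on replicate 2 and 0.56 lower on replicate 3 than on the other arrays, whereas Gclm was 0.58 lower on replicate 1 and 0.49 higher on replicate 3. On the deposited signals Glrx was again lowest on replicate 3, but so was Gclm. Gpx2 was 0.50 higher on replicate 2 and 0.50 lower on replicate 1, and on the deposited signals it was highest on replicate 2 and lowest on replicate 3. These are differences between single arrays, for which the design allows no test.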

How the data were processed

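Total RNA from the embryonic region of 3 samples was hybridized to Illumina Mouse-6 arrays. The authors deposited log2 signals summarised per gene symbol and not normalized between arrays, with Partek named in the submitters' processing notes. The detection p-values, bead numbers, and standard errors over beads were deposited too, and the last entered no value. How probes were averaged, the genome build, and the tool version are not given in the sources used here. Samples were grouped by their labels.

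Of the detection p-values of symbols with 1 probe, 96.5% of 55056 were whole multiples of 1 in 936, within 0.002 of a step's width. The probe number was the smallest that made the bead means whole (up to 12 probes), raised for 659 symbols whose detection p did not lie on the steps of that number, and 95.8% of symbols then lay on them. It is an inference. Signals were corrected with the normexp model, an offset of 16 was added, and values were quantile normalized and set to log2. For each array, the dimmest symbol of 1 probe whose detection p was under 0.01 but not 0 set the background level. Level minus background was tested with limma 3.58.1 (lmFit with an intercept, eBayes, one-sided) on the 30854 symbols, and p-values were adjusted after Benjamini-Hochberg (threshold 0.05). The test was checked on simulated levels. Older symbols and promoters were matched through RefSeq tables of GRCm38.p6, and 53 of the 56 symbols were current.

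The members and gene lists were chosen with earlier results of these data known. By the rule for named genes, 33 core enzymes (32 on the array) have their values on every array, every other member is named with its call (apart from 1 that is not reported here), and members with the extreme SDs and called genes of the lists may be named. Alternatives were other detection thresholds, fewer arrays, symbols with 1 probe, other background corrections, normalizations, and background levels, a filter on dim symbols, and leaving out each replicate. A call from the mean signal on every array was added after the data had been seen. The software was R 4.3.3 and Python 3.11.15 with pandas 2.3.3, numpy 2.4.6, and scipy 1.17.1.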

Additional observations from a re-analysis of the deposited data

How the results depend on the processing

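The count of 24 called antioxidant and glutathione genes stayed within 1.5 times under all alternatives tried. It was 28 at a detection p under 0.05 (Gss, Gstm6, Gstp1, and Prdx1 gained), 20 at 0.001 (Gstm1, Gstp2, Prdx2, and Txnrd3 lost), 29 with 2 arrays passing, 32 with 1, 18 among symbols with 1 probe, and 24 to 27 without any single replicate. Calling genes by a signal above background on all arrays, an alternative chosen after seeing the data, gave 33. Over all symbols the count of 6357 was 7610 at 0.05, 5249 at 0.001, and 7897 with 2 arrays passing. It was 4580 among symbols with 1 probe and 8111 by a signal above background on all arrays. It rose to 10172 where 1 array had to pass, and lay between 6524 and 7427 without any single replicate. The limma count of 31 ranged from 29 to 32. Over all symbols the share that passed was 25.7% in the main fit. It ranged from 23.4% on the deposited signals to 28.1% without replicate 3, apart from the filter on dim symbols. With that filter, which left fewer symbols in the fit, it was 55.9%. Cat passed on the deposited signals (0.11 above background, limma), with median scaling (0.34), with the other background level (0.34), and without replicate 3 (0.36). Txn1 missed on the deposited signals (0.16 in limma), with median scaling (0.49), without replicate 1 (0.30), and without replicate 2 (0.38). Gstp2 missed with quantile normalization alone, without replicate 1, and without replicate 2. The filter on dim symbols removed Sod1 and Txn1 from the fit, since neither had a detection p under 0.05 on any array. The cause of the other changes was not tested. The median shift of the called genes between arrays was 0.44 on replicate 1 with median scaling and 0.32 on the deposited signals, and on replicate 3 it was -0.58 and -0.44, where all called symbols shifted by 0.44, 0.32, -0.52, and -0.38. Of the core levels, Prdx6 (-0.09) changed sign, lying between -0.28 (without replicate 3) and 0.03 (without replicate 2), and it passed in limma under no setting; the others kept their sign. Sizes moved more: with quantile normalization alone, Txn2 was 0.94 above background in place of 2.05, Prdx5 0.86 in place of 1.93, Txnrd2 0.54 in place of 1.36, and Sod2 2.50 in place of 4.10, close to the values on the deposited signals, and with an offset of 50 they were 1.29, 1.20, 0.78, and 3.07. No paired analysis was possible because all arrays belong to 1 group. Without replicate 3, Gss was at -0.10 in place of -0.20 and Nqo1 at -0.32 in place of -0.19. On the same arrays Txnrd1 was at -0.13 in place of -0.23, and Txn1 at 0.67 in place of 0.44. Without replicate 1, Nqo1 was at -0.11. Signals near the background level, such as those of Gstp2 and Cat, set what these arrays can show.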
